A study of Mus musculus with 6 samples.

Results

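The proteasome genes of the mouse cochlea were examined in young and old C57BL/6 mice, an inbred strain with early-onset age-related hearing loss (AHL). They were taken as all protein-coding genes whose symbol starts with Psma, Psmb, Psmc, Psmd or Psme followed by a number, which gave 45 genes of the 25823 genes in the table. Basilar membranes, the part of the cochlea that carries the sensory epithelium, were dissected from 1-month and 12-month mice, called young and old here. Each group had 3 RNA-sequencing samples, and each sample was a mixture of tissue from 3 mice. The paper describes the mixed tissue as cochlear and does not name the basilar membrane. The labels give no transgene and no treatment, and age was the only labelled difference between the groups. The unit was FPKM, a fragment number scaled to transcript length and library size, summed over the transcripts of a gene. Because of the scaling to length, levels can be set side by side between genes.

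The 26S proteasome degrades ubiquitin-tagged proteins. Its 20S core is a barrel of alpha and beta rings, and the beta rings hold the proteolytic sites. The 19S regulatory particle, made of ATPase (Psmc) and non-ATPase (Psmd) subunits, recognizes and unfolds the substrates. Interferon-gamma and related signals induce the catalytic subunits Psmb8, Psmb9 and Psmb10, which take the places of Psmb5, Psmb6 and Psmb7 in newly made immunoproteasomes. The same signals induce Psme1 and Psme2, the alpha and beta subunits of the PA28 activator. Immune cells hold immunoproteasomes without induction, and the peptides that these particles release feed presentation by class I molecules. Each of the 45 genes was listed in the table and passed the filter on low values, a mean of at least 0.1 FPKM over the 6 samples.

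Of the 5 inducible members 4 rose in the old cochlea, and none of the other 40 members passed the test. Psmb8, Psmb9, Psme1 and Psme2 were the 4 that rose (limma adjusted p from 0.0187 to 0.0315, adjusted over all genes). The inducible Psmb10 and the constitutive catalytic subunits Psmb5, Psmb6 and Psmb7 were not called. Among the 40 members outside the inducible set, limma gave 8 higher and 2 lower at an unadjusted p below 0.05. At the same threshold 2843 of all 19649 genes tested were higher and 2560 lower. The 4 called members made up 8.89% of the 45, and 9.09% of all 19649 genes tested were called, so the share among the proteasome genes was near that of all genes. In the direction of the 4 calls, 5.41% of all genes tested were higher in old mice. In the other direction 3.68% of all genes were lower and 0 members were lower. The median log2 change of the 45 members was 0.07, and that of all genes tested was 0.0087. The 4 calls depended on the model, since none of the 4 passed with no filter on low values (limma adjusted p from 0.0740 to 0.115) or without the trend of variance with level (limma adjusted p from 0.0530 to 0.0941).

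Psmb8 encodes the inducible subunit with chymotrypsin-like activity (beta5i). Its level was 6.60, 4.55 and 4.44 FPKM in young replicates 1 to 3 and 16.1, 42.5 and 19.99 FPKM in old replicates 1 to 3. All old samples were above all young samples, and old replicate 2 stood above the other two. The mean rose from 5.20 ± 1.22 to 26.2 ± 14.3 FPKM (SD, n = 3 per group). On the log2(FPKM + 0.1) scale used for every test, the rise was 2.20 with a standard error (SE) of 0.35 (limma adjusted p = 0.0195), the largest among the 45 members.

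Psmb9 encodes the inducible subunit at the caspase-like site (beta1i). It was measured at 1.99, 1.90 and 1.70 FPKM in young mice and at 4.81, 9.08 and 5.04 FPKM in old mice. The groups did not overlap, and old replicate 2 was again the highest. The log2 rise was 1.65 (SE 0.26, limma adjusted p = 0.0187).

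Psmb10 encodes the inducible subunit at the trypsin-like site (beta2i). Its level was 17.2, 11.0 and 13.6 FPKM in young mice and 16.9, 38.6 and 25.2 FPKM in old mice. The groups overlapped, since old replicate 1 lay just below young replicate 1. The log2 difference of 0.89 (SE 0.30, 95% interval from 0.20 to 1.58) did not pass the test (limma adjusted p = 0.104). Psmb10 was the most abundant of the inducible catalytic subunits in all young samples.

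Psme1 was at 42.6, 32.6 and 38.4 FPKM in young mice and at 57.3, 79.1 and 64.5 FPKM in old mice. Psme2 was at 64.3, 53.8 and 57.4 FPKM in young mice and at 80.1, 116 and 88.4 FPKM in old mice. Both PA28 subunits were higher in all old samples than in any young sample, with the highest value in old replicate 2. Psme1 rose by 0.82 on the log2 scale (SE 0.14, limma adjusted p = 0.0227) and Psme2 by 0.68 (SE 0.14, limma adjusted p = 0.0315). The rise of Psme2 missed the threshold when any one of the 6 samples was left out (limma adjusted p from 0.0509 to 0.1001), with a log2 change between 0.53 and 0.79. The rises of the PA28 subunits were smaller in value than those of Psmb8 and Psmb9, a difference that was not tested, and their levels were higher. Psme1 stayed below Psme2 in every sample, at 0.646 ± 0.035 of its level in young mice and 0.709 ± 0.024 in old mice (SD, n = 3).

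**Figure D1:**
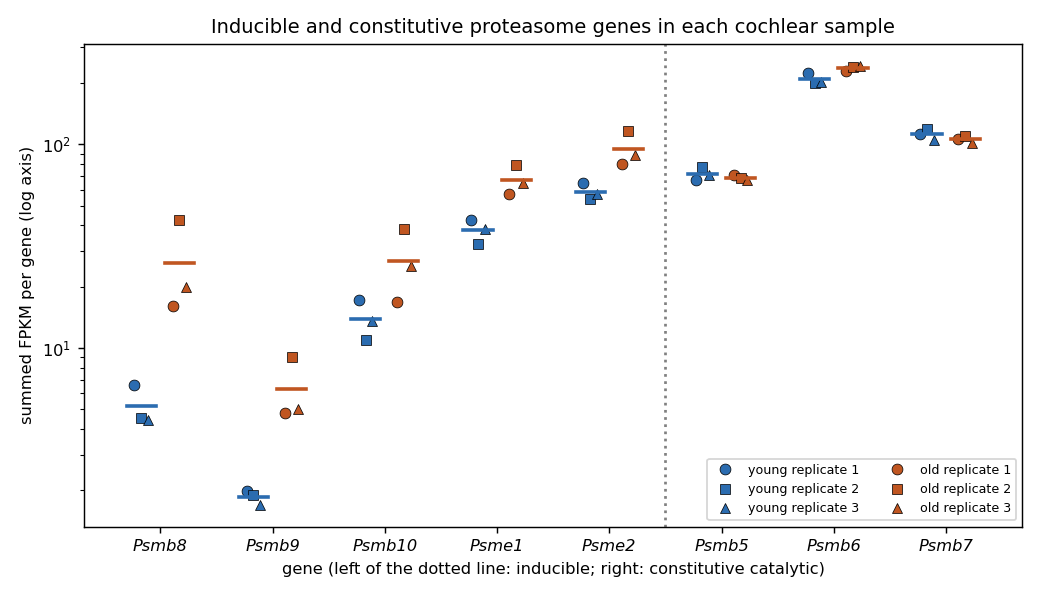
Summed FPKM per gene on a log axis for the 5 inducible genes (left of the dotted line) and the 3 constitutive catalytic genes (right), with 1 point per sample and a bar at each group mean. Old samples lie above young samples for Psmb8, Psmb9, Psme1 and Psme2, old replicate 2 (square) is the highest for all 5 inducible genes, and the age groups lie close together for Psmb5 and Psmb7.

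Psmb5, the constitutive counterpart of Psmb8, was at 66.7, 77.6 and 70.6 FPKM in young mice and at 70.7, 68.5 and 66.7 FPKM in old mice. The groups overlapped, and the log2 difference was -0.06 (95% interval from -0.23 to 0.11, limma adjusted p = 0.642). Psmb7, the counterpart of Psmb10, was at 112.6, 119.6 and 105.5 FPKM in young mice and at 105.9, 110.5 and 101.9 FPKM in old mice. It overlapped too, with a log2 difference of -0.08 (95% interval from -0.25 to 0.08, limma adjusted p = 0.476). Both intervals lie below the smallest rise among the called genes, the 0.68 of Psme2.

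Psmb6, the counterpart of Psmb9, differed from these in that the groups did not overlap. Its level was 223, 200.7 and 202 FPKM in young mice and 229, 240.5 and 243 FPKM in old mice. The log2 difference was 0.19 (95% interval from 0.03 to 0.34), which did not pass the test (limma adjusted p = 0.118). Psmb6 had the highest level of the 45 members in both groups.

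To compare the members of each pair within a sample, the inducible share of their summed FPKM was computed, which a single scaling factor per sample leaves unchanged. Psmb8 made up 8.999%, 5.54% and 5.91% of Psmb8 plus Psmb5 in young mice and 18.5%, 38.3% and 23.1% in old mice. The share of Psmb9 in its pair with Psmb6 was 0.881%, 0.939% and 0.834% in young mice and 2.06%, 3.64% and 2.04% in old mice. For Psmb10 with Psmb7 it was 13.3%, 8.43% and 11.4% in young mice and 13.8%, 25.9% and 19.9% in old mice. All old shares were above all young shares in each pair, although for Psmb10 the lowest old share was close to the highest young share. The two-sided exact permutation test gave p = 0.1 for each pair (0.1 after adjustment over the 3 pairs), which is the smallest p that 3 samples against 3 can give, so this test could not pass 0.05. Mean shares went from 6.82% ± 1.90 to 26.6% ± 10.4 for Psmb8, from 0.884% ± 0.052 to 2.58% ± 0.918 for Psmb9 and from 11.0% ± 2.44 to 19.8% ± 6.06 for Psmb10 (SD, n = 3).

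**Figure D2:**
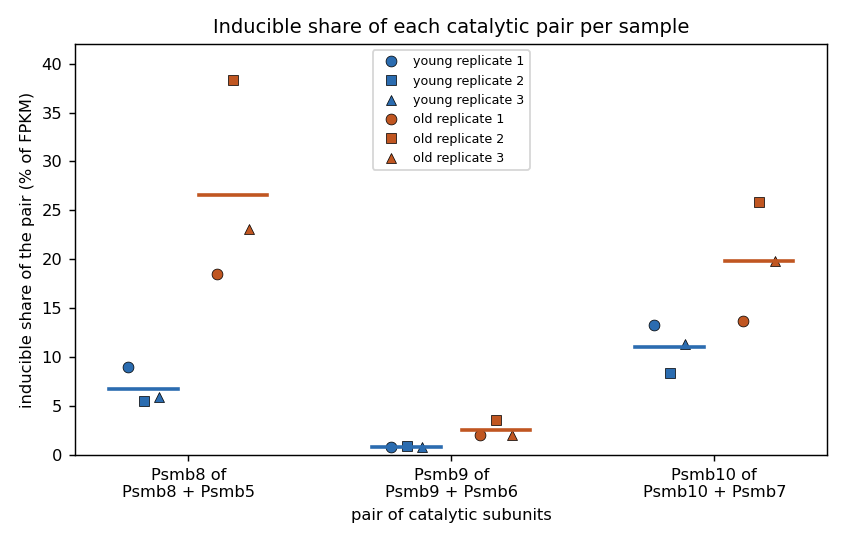
Share of the inducible subunit in the summed FPKM of each catalytic pair, in percent, with 1 point per sample and a bar at each group mean. Old shares lie above young shares in all 3 pairs, most for Psmb8 (from 6.82% to 26.6%), and the Psmb9 share stays low in both groups.

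Over the inducible and constitutive catalytic subunits together, the inducible ones supplied 5.06% ± 0.916 of the FPKM in young mice and 12.4% ± 4.76 in old mice. The constitutive subunits therefore made up most of the catalytic transcripts at both ages. The mean log2 level of the 5 inducible genes minus that of Psmb5, Psmb6 and Psmb7 was -3.25 ± 0.21 in young mice and -2.01 ± 0.44 in old mice. This difference of 1.23 also gave an exact permutation p of 0.1. Without old replicate 2 it was 0.99. Psme3, which encodes the PA28 gamma subunit of a nuclear activator and is not part of the interferon-induced set, was at 21.0 FPKM in young and 21.96 FPKM in old mice (log2 0.06, limma adjusted p = 0.641). The summed FPKM of Psme1 and Psme2 per FPKM of Psme3 was 4.597 ± 0.564 in young and 7.34 ± 0.940 in old mice (SD, n = 3).

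None of the 14 constitutive 20S subunits (Psma1 to Psma7 and Psmb1 to Psmb7) was called by limma, and 5 were higher and none lower at an unadjusted p below 0.05. They had 10 log2 differences above 0, 4 below 0 and a median of 0.07. Their summed level was 1645.5, 1624.2 and 1519.1 FPKM in young mice and 1683.6, 1704.9 and 1726.4 FPKM in old mice. The 20S member nearest to the threshold was Psmb2, a structural beta subunit, at 62.5, 57.4 and 54.2 FPKM in young and 66.6, 73.7 and 74.1 FPKM in old mice. All old samples were higher for Psmb2, with a log2 difference of 0.30 (limma adjusted p = 0.0568). It passed with a filter at a mean of 1 FPKM (limma adjusted p = 0.0498) and with sample weights (limma adjusted p = 0.0390).

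Among the 17 subunits of the 19S particle, 9 log2 differences were above 0 and 8 below 0, with a median of 0.0004. Limma called none of them, with 2 higher and 1 lower at an unadjusted p below 0.05. The 6 ATPase subunits ranged from -0.13 (Psmc2) to 0.11 (Psmc3). The 11 non-ATPase subunits ranged from -0.31 to 0.28, the widest spread of the constitutive classes. Psmd4, a ubiquitin receptor of the particle, was at the upper end (106 FPKM in young and 129 FPKM in old mice, limma adjusted p = 0.106). Psmd6, a subunit of the lid, was at the lower end. It measured 62.1, 69.4 and 55.6 FPKM in young and 48.0, 51.8 and 50.9 FPKM in old mice, so that all old samples were lower (limma adjusted p = 0.0789). No log2 difference of a constitutive 20S or 19S subunit was larger than 0.31 in size.

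Psme4, which encodes the activator PA200, was at 31.9, 32.9 and 32.7 FPKM in young and 28.2, 28.1 and 28.0 FPKM in old mice. All old samples were lower, and the log2 difference of -0.21 did not pass the test (limma adjusted p = 0.0809). It was the only activator gene whose old samples were below all young samples. The assembly chaperones Psmd5, Psmd9 and Psmd10, which leave the particle before it is complete, had log2 differences from -0.31 to 0.10 with groups that overlapped.

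In all, the age groups did not overlap in 16 of the 45 members, 13 with old above young and 3 with old below young (Psmd6, Psmd12 and Psme4). That was 35.6% of the members, near the 33.5% of all genes tested. At an unadjusted p below 0.05 there were 15 of the 45 members (13 higher, 2 lower), and 5403 of all 19649 genes tested (2843 higher, 2560 lower).

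**Figure D3:**
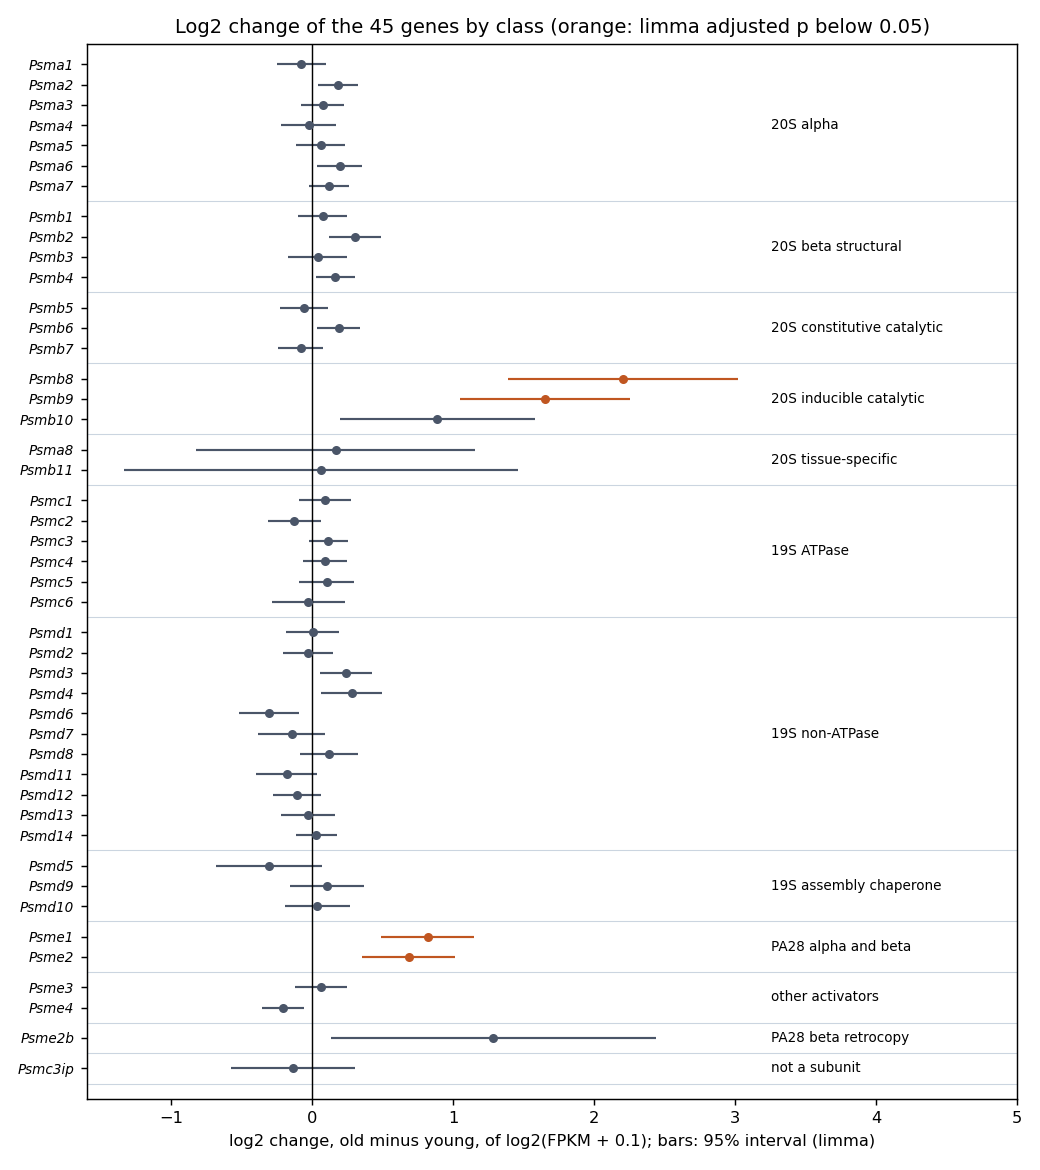
Log2 change (old minus young) of log2(FPKM + 0.1) for the 45 genes, grouped by class, with the limma 95% interval as a bar. The called genes Psmb8, Psmb9, Psme1 and Psme2 (orange) lie to the right of the constitutive 20S and 19S subunits, which lie between -0.31 and 0.30, and the intervals are widest for genes near 0 FPKM.

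Some members match by symbol but differ in expression or role. Psma8 and Psmb11, the alpha subunit of the testis and the beta subunit of the thymus, were near the lower limit of detection. Psma8 was at 0.320 ± 0.125 FPKM in young and 0.367 ± 0.119 FPKM in old mice, and Psmb11 at 0.112 ± 0.077 and 0.126 ± 0.093 FPKM (SD, n = 3; limma adjusted p = 0.833 and 0.960). Psmc3ip, which encodes a recombination factor that binds the Psmc3 protein and is no proteasome subunit, was at 4.08 FPKM in young and 3.71 FPKM in old mice (limma adjusted p = 0.679). Psme2b is an intronless copy of Psme2, and reads can be split between near-identical copies, so its level is uncertain. It was at 0.275, 0.264 and 0.441 FPKM in young and 1.32, 1.38 and 0.407 FPKM in old mice, with groups that overlapped (limma adjusted p = 0.145). These values correspond to about 2, 2 and 3 fragments in young and 9, 12 and 3 fragments in old mice.

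The transcripts behind the called genes were also compared. Psmb8 was listed with 2 protein-coding transcripts. ENSMUST00000173441 (840 nt) had a mean of 2.82 FPKM in young and 16.3 FPKM in old mice, and ENSMUST00000025196 (1628 nt) had 2.38 and 9.88 FPKM. Both were higher in every old sample than in any young sample, so the higher level of the gene did not rest on 1 isoform. Psmb9, Psme1 and Psme2 each had 1 dominant transcript, with 91.4%, 92.7% and 94.7% of the FPKM of the gene. The minor Psme2 transcript ENSMUST00000111378 had 4.54 FPKM in young and 3.67 FPKM in old mice, unlike the main one, whose mean went from 53.9 to 91.2 FPKM.

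Psmb8 and Psmb9 are neighbours in the class II region of the major histocompatibility complex on chromosome 17 (GRCm38), interleaved with the peptide transporter genes Tap1 and Tap2. Psmb8 lies on the plus strand at chr17:34197721-34201454 and Psmb9 on the minus strand at chr17:34181987-34187764. Tap1 lies between them, 495 nt from Psmb8, and overlaps Psmb9 by 212 nt on the opposite strand. Psmb8 overlaps the antisense gene Gm20496. The library kit kept strand, but whether the quantification used it was not given in the sources used here, so reads in the overlaps cannot be assigned with certainty. Psme1 (chr14:55578123-55581529, plus strand) and Psme2 (chr14:55587441-55591113, minus strand) lie 5911 nt apart.

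Windows around the RefSeq starts of the members were searched for 3 short motifs linked to interferon or oxidative signals. The window ran from 250 bases before the RefSeq start to 20 bases after it, on both strands, and 38 of the 45 members had a window in the RefSeq table (GRCm38.p6). The RefSeq starts of Psmb8 and Psmb9 lie 474 and 434 nt downstream of the start of their main transcript in the table, and all 270 bases of both windows lie within annotated exons. For these genes the sequence upstream of the main transcript was therefore not searched, and for Psme1 the RefSeq start lies 134 nt downstream. The interferon-stimulated response element (ISRE) was searched as GAAA, any 2 bases and GAAA. The gamma-activated site (GAS) bound by STAT factors was searched as TTCNNNGAA, and the core of the antioxidant response element (ARE) as TGACNNNGC. Of all 32851 windows, 3.21% held the ISRE letters, 7.58% the GAS letters and 11.1% the ARE letters. Among members, the ISRE letters were in 4 of 38 windows (Psme1, Psmb3, Psmd4 and Psmd9), the GAS letters in 2 (Psmb8 and Psmd2) and the ARE letters in 6 (Psmb5, Psmb6, Psmc6, Psmd9, Psmd12 and Psme4). A match says that the letters are present, not that a factor binds there. The windows of Psmb9, Psmb10 and Psme2 held none of the 3 motifs.

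The stretches with a match in the inducible genes are shown with 30 bases each, and capitals mark the motif. Psmb8 (chr17:34198087-34198116, plus strand) holds GAS letters at positions -97 to -89 from its RefSeq start, and Psme1 (chr14:55578484-55578513, plus strand) holds ISRE letters on the opposite strand at positions 10 to 19. Both stretches lie within an exon of at least 1 annotated transcript.
Psmb8: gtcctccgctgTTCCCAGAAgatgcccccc
Psme1: tgcaggtttcgagctgtgcTTTCGCTTTCc

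For comparison, the sequences before the first annotated exon are given for Psmb5 (chr14:54618023-54618245, minus strand) and Psmb6 (chr11:70525107-70525366, plus strand), whose ARE letters are in capitals, and for Psme2 (chr14:55591114-55591351, minus strand), a called gene without a match. Each is written 5′ to 3′ on the strand of the gene.
Psmb5: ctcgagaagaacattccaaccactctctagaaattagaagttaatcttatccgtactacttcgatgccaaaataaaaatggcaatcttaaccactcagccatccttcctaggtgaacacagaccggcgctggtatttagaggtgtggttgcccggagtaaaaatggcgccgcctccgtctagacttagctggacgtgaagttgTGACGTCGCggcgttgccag
Psmb6: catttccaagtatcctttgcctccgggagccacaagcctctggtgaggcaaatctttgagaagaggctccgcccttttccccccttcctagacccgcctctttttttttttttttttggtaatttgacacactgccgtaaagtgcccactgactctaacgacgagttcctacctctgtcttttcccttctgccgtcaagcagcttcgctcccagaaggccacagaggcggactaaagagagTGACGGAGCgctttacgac
Psme2: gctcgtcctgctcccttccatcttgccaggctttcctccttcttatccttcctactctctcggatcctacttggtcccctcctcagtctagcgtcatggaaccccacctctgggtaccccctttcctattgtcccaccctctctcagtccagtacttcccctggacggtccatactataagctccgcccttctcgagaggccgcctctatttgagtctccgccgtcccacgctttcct

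The other genes of the pathway were taken from lists. Of 19 genes for proteasome assembly and regulation, among them the chaperones Pomp and Psmg1 to Psmg4 and the transcription factor Nfe2l1, limma called none, and the median log2 difference was -0.07, with 1 higher and 5 lower at an unadjusted p below 0.05. Among genes for ubiquitin-like modifiers and the shuttle receptors that bring substrates to the proteasome, the interferon-induced modifier Isg15 rose (log2 2.30, limma adjusted p = 0.0382), and none fell. Isg15 was at 9.22, 3.87 and 4.49 FPKM in young and 14.9, 57.6 and 23.4 FPKM in old mice, with old replicate 2 the highest as for the inducible subunits.

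The next list held genes that act after the proteasome in class I presentation, or that control it. Of 22 listed genes 21 were tested, 10 rose and none fell by limma (5.41% of all genes tested were called higher), and 16 were higher and none lower at an unadjusted p below 0.05. The median log2 difference was 0.65. Ifng, the gene of interferon-gamma itself, was listed at 0 in all 6 samples and was not tested. Tap1, the peptide transporter next to Psmb9, was at 6.94, 4.503 and 5.91 FPKM in young and 12.8, 25.7 and 14.1 FPKM in old mice (log2 1.53, limma adjusted p = 0.0251). The class I heavy chains H2-K1 (log2 1.53, limma adjusted p = 0.00867) and H2-D1 (log2 1.39, limma adjusted p = 0.00825) and their light chain B2m (log2 0.95, limma adjusted p = 0.0135) rose as well. So did Tap2, Nlrc5, the transactivator of class I genes, and Irf9, a part of the type I interferon transcription complex. Of the 21 tested genes, 14 had their highest old value in old replicate 2.

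Markers of leukocytes were also higher in old mice. Of 15 markers of macrophages and other leukocytes, 14 rose (all but Cx3cr1) and the median log2 difference was 1.77. Of all genes tested, 5.41% were called higher. At an unadjusted limma p below 0.05, 14 markers were higher and none lower. Their summed level was 249.6, 151.4 and 178.4 FPKM in young and 902, 889.1 and 814 FPKM in old mice, and none of the 15 was at 0 in the old samples. Lyz2, the macrophage lysozyme gene, supplied a large part of this sum, with 86.9, 61.2 and 70.0 FPKM in young and 510.8, 399.6 and 440.1 FPKM in old mice. Without Lyz2, a choice made after seeing the data, the other 14 markers summed to 162.6, 90.2 and 108 FPKM in young and 391, 489.5 and 374 FPKM in old mice. Old replicate 2 was the highest in this sum, whereas old replicate 1 was the highest in the sum of all 15 markers. For Psmb8 old replicate 2 was at 2.36 times the mean of old replicates 1 and 3, and the ratio was 1.84 for Psmb9, 1.83 for Psmb10, 1.30 for Psme1, 1.38 for Psme2, 1.91 for Tap1 and 3.01 for Isg15. Over the 15 leukocyte markers the ratio ran from 0.840 (Lyz2) to 1.91 (Aif1) with a median of 1.26, above 1 for 13 markers and below 1 for Lyz2 and Ptprc. Of 6 lymphocyte genes in the table, 1 rose (Cd3g), and their summed level was between 0.549 and 3.50 FPKM in all samples. At an unadjusted limma p below 0.05, 3 of them were higher and none lower.

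Of 12 listed cochlear genes, 3 fell and 2 rose, where 3.68% of all genes tested were called lower and 5.41% higher. At an unadjusted limma p below 0.05, 6 were lower and 3 higher. Otog (log2 0.71, limma adjusted p = 0.0326) and Otoa (log2 0.68, limma adjusted p = 0.0137), genes of the acellular gels over the sensory cells, rose. Other listed genes of these gels did not. Tectb was lower in value but not called (log2 -0.62, limma adjusted p = 0.163). Tecta was near the lower limit of detection and not called (log2 0.20, limma adjusted p = 0.824). The outer hair cell genes Slc26a5 and Ocm fell, while the hair cell genes Myo7a, Myo6, Otof and Pou4f3 were not called (log2 from -1.33 for Pou4f3 to 0.0018 for Myo7a). Coch fell too, at a mean of 8294.7 FPKM in young and 5447.1 FPKM in old mice. In these bulk samples a change in the number of cells of a type and a change in RNA per cell cannot be told apart. The part of leukocytes in the rise of the inducible subunits was not tested.

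**Figure D4:**
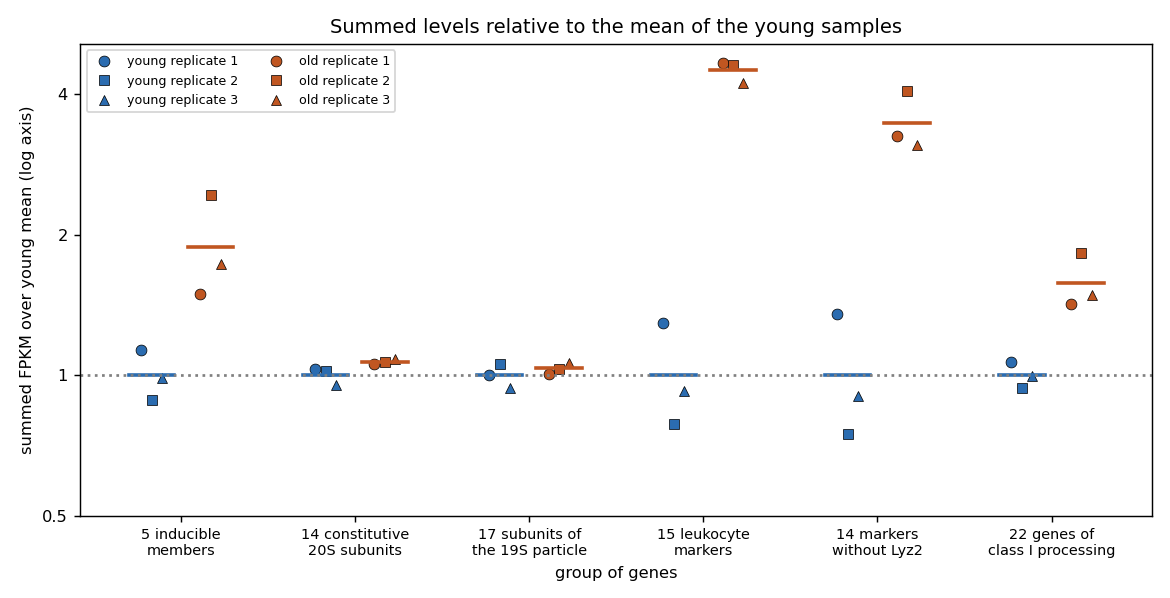
Summed FPKM of 6 groups of genes in each sample, divided by the mean of the young samples, on a log axis, with a bar at each group mean. The inducible genes reach 1.49, 2.43 and 1.73 in old replicates 1 to 3, the constitutive 20S subunits stay between 1.05 and 1.08 and the 19S subunits between 1.01 and 1.06, while the leukocyte markers lie between 4.21 and 4.67 with Lyz2 and at 3.249, 4.066 and 3.105 without it.

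The calls depended on single samples. The spacing of low FPKM implied 12560000 to 15530000 fragments per library, with the highest number in old replicate 2. These numbers depend on the scaling between libraries, which is not given, so they may differ from the sequenced depth. Pairs of samples within a group correlated at 0.950 to 0.962 on the log2 scale, across genes past the filter on low values. Leaving out old replicate 2, the log2 changes were 1.79 for Psmb8, 1.36 for Psmb9, 0.69 for Psme1 and 0.53 for Psme2, and Psmb8 was the 1 member still called. Over the 6 samples left out in turn, the limma adjusted p of Psmb8 ran from 0.0328 to 0.0630. Without young replicate 2 no member was called, and without old replicate 3 the only called member was Psmb9. In these fits the number of called genes of all genes also fell, from 1787 to 59 without old replicate 2, 300 without young replicate 2 and 341 without old replicate 3.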

How the data were processed

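Basilar membranes of young (1 month) and old (12 months) C57BL/6 mice were analysed, with 3 samples per group and 3 mice per sample. P-values measure the spread between these samples. The deposited table holds FPKM per transcript, which the authors computed with Cuffdiff (v2.1.1) after assembly with Cufflinks (v2.1.1) on GRCm38. The submitters' processing notes also name CASAVA (v1.8) and TopHat2 (v2.0.9). The annotation release and the scaling between libraries are not given in the sources used here. Fragment numbers per library were inferred from the spacing of low FPKM, with 92.4% to 94.1% of these values on a step within 0.1 of a fragment, and they cover counting error only. FPKM are not counts, so no count model was used.

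Transcripts were matched to GENCODE M21 (55275 of 55679 Ensembl transcripts) and summed per gene. The 404 unmatched Ensembl transcripts and the 992 transcripts of the authors' own assembly were each kept as a gene of their own. They are part of the 25823 genes in the table, and those past the filter are among the genes tested. limma 3.58.1 in R 4.3.3 (lmFit, eBayes with trend) was fitted to log2(FPKM + 0.1) of all genes with a mean of at least 0.1 FPKM, with age as the only term. The Benjamini-Hochberg adjustment ran over all 19649 genes tested, at a threshold of 0.05, and a gene past it is called. A fold on this scale understates the change of low genes. Shares and the log2 ratio were compared by two-sided exact permutation tests. The code was tested on simulated data. The members and lists were chosen with earlier results of these data known. Named were the 8 genes of the contrast, called members, members of restricted use and Psmc3ip, and at most 8 called genes per list. Psmb2, Psmb3, Psmc2, Psmc3, Psmd2, Psmd4, Psmd6, Psmd12, Psme3 and other members outside this rule were named after their values were seen. For 1 listed gene no result is reported here, and the counts of its list are left out. Promoter windows were those of RefSeq (GRCm38.p6). Python 3.11.15, pandas 2.3.3, scipy 1.17.1 and matplotlib 3.10.9 were used. The alternatives, 19 in number, were other pseudocounts, filters, scalings, variance and weight settings, transcript choices, adjustments, a replicate block and each sample left out.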

Additional observations from a re-analysis of the deposited data

How the results depend on the processing

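The direction of Psmb8, Psmb9, Psmb10, Psme1 and Psme2 was kept under every alternative, and the calls depended on the variance model. With no filter 1 member was called (Psme4, lower; 0 higher, 0 of the 5 inducible genes), without the variance trend 0 members, and with a replicate block 2 (Psmb8 and Psmb9, both higher), against 4 in the reported fit. At an unadjusted p below 0.05 there were 15 members, 13 higher and 2 lower, with 5 of the 5 inducible genes and 1 of the 3 constitutive ones (Psmb6). With 1 sample left out, 0 to 4 members were called, 0 to 3 higher and 0 to 1 lower, with 0 to 3 of the inducible genes and none of the constitutive ones. Called genes among all genes fell with no filter (307), without the trend (392) and with the block (675). Under quantile normalization the class medians moved to 0.016 for the structural beta subunits (0.12 as reported) and 0.0051 for the ATPases (0.09). The sign changed for Psma8, to -0.0045 under quantile normalization and to -0.027 without old replicate 2 (range -0.027 to 0.40 with 1 sample left out). It changed for Psmb11, to -0.18 under quantile normalization, -0.045 without young replicate 1 and -0.11 without young replicate 3 (range -0.11 to 0.36), and both genes are at levels of a few fragments. The causes were not tested.

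No pairing of the samples by replicate number was seen across genes. Deviations of same-numbered samples from their group means correlated at 0.022, -0.042 and 0.010, and not every sample correlated best with its own number. Deviations within groups of 3 samples cannot exclude a pairing. The differences in the pair shares and in the log2 ratio kept their direction with each sample left out (13.96 to 23.86 percentage points for Psmb8, 1.16 to 1.97 for Psmb9, 5.76 to 11.8 for Psmb10, 0.99 to 1.42 for the ratio). The leukocyte marker sum in old mice was 4.497 times that in young mice and 3.473 times without Lyz2, which was added after seeing the data. With 3 samples per group, small changes of constitutive subunits may have been missed.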
